A study of Mus musculus with 6 samples.

Results

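The Fos and Jun family are the 7 genes Fos, Fosb, Fosl1, Fosl2, Jun, Junb and Jund, and the array probes that the files name for them are described here in tumour DNA. On the denser of the 2 array designs used, 5 of the 7 genes were named by a probe, with 11 probes among 220065 on chromosomes 1 to 19. Fos had 3 probes, Fosl2 had 4, Fosl1 had 2, and Jun and Fosb had 1 each. No probe was named for Junb or Jund, so both were dropped. The sparser design held 7 of the 11 probes and none for Fosb.

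The tumours were malignant mesotheliomas of mice, which the series title calls induced by asbestos in Arf knockout animals. The design text gives the genotype Arf(+/-) for 4 mice, whereas 5 tumours are titled (ARF-104 and ARF-110, ARF-112 and ARF-129, and ARF-128), and which of them the text leaves out is not given. Cells are called primary mesothelioma cells in the labels of all but ARF-104, which carry no cell type, and neither the sex nor the strain of the mice is given. Tumour DNA (Cy5) was hybridised in each case against commercially obtained C57BL/6J DNA (Cy3), without a dye swap, so all ratios share 1 reference and its spread is not measured. The denser array of ARF-128 has the title ARF-128PlusMinus, an addition the sources used here do not explain.

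AP-1 is a family of transcription factors made of paired proteins. Each protein carries a leucine zipper, through which a Fos protein pairs with a Jun protein, and a basic stretch that contacts DNA at the sequence TGACTCA. Jun proteins can also pair with each other, whereas Fos proteins cannot. Most of these genes are switched on within minutes by growth factors, stress and the MAP kinases. In rat pleural mesothelial cells asbestos fibres are known to induce Fos and Jun for a long time, and Fosl1 is known there as a component of AP-1 after asbestos. Copy number says nothing of expression, which was not measured here.

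Sequences are printed for 4 probes, as the files give them, because the results on Fos, Fosl1 and Fosl2 turn on them. The first 2 lie in Fos on chromosome 12. Capitals mark 3 codons for leucine, 7 codons apart, of which the last is cut by the probe's end. That is the spacing of a leucine zipper, and the probe lies in the part of Fos that encodes it. A looser count found 3 or more leucine codons with a partner 7 codons away in 9.84% of all probes. That count did not require the codons to follow in a row or to share a reading frame. How often the exact spacing of the Fos probe occurs was not counted, so the letters alone were not taken to mark a zipper. The other probes have no stretch to single out and are in lower case throughout.
Fos A_53_P162286: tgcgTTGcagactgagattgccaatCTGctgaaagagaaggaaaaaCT
Fos A_53_P106341: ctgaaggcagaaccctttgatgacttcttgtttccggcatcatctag
Fosl1 A_67_P09093434: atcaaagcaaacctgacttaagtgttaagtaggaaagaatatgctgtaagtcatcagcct
Fosl2 A_53_P111325: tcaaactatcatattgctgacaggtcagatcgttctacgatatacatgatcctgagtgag

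The Fos probes cover chr12:83477327-83477374 and chr12:83477586-83477632, the Fosl1 probe chr19:5346273-5346332 and the Fosl2 probe chr5:31180655-31180714, all in mm7, the build named in the header of 1 file. The sources used here do not give the strand. The Fosl1 probe has a stop codon in all 6 reading frames, and so is not coding throughout. The third Fos probe, A_53_P175718, holds the letters AATAAA, those of the usual polyadenylation signal, as do 4.67% of all probes. Which of the other probes lie in exons or introns was not analysed here.

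Values are log2 ratios of tumour over C57BL/6J signal, centred on the median of chromosomes 1 to 19 of each array. If every cell of a diploid tumour gained 1 copy the ratio would be 0.58, and if every cell lost 1 copy it would be -1. A gene's level is the mean of its own probes. Its flank is the median of all other probes within 1 Mb on either side, and its segment is the longer stretch of equal ratio that it lies in, called gained or lost at 0.25 or more from 0. ARF-128 was taken from its denser array unless stated. The noise of a single probe differed between arrays, with an SD of 0.15 for ARF-110, 0.36 for ARF-104 and 0.39 for ARF-112, 0.49 for ARF-129 and 0.78 for ARF-128, and median red signal was 4.14 to 11.1 times background. The number of arrays, 6 for 5 tumours, limits the precision.

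None of the 5 genes passed the test of a difference from its surroundings. Of the 24 pairs of a gene and a tumour with a value, 0 lay 2 array errors or more from the flank, where an array error is the SD of the flank probes divided by the square root of the number of own probes. The farthest was 1.50 errors away. Among all genes 6.86% of such pairs lay that far out. With limma over all 24690 genes, 0 of the 5 genes differed from the flank at an adjusted p under 0.05, beside 22.3% of all genes (9.71% higher and 12.5% lower), and 0 of the 5 had an unadjusted p under 0.05. The share of all genes was itself 0 with a random block for scan day (limma, with 1898 higher and 2480 lower at an unadjusted p under 0.05), and 0 again when ARF-104, ARF-112 or ARF-129 was left out (3099 to 3229 higher and 3956 to 4117 lower unadjusted). The split of higher and lower among all genes moved with the background correction. Of the genes called, 43.6% were higher in the main setting and 64.3% after normexp background correction.

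**Figure D1:**
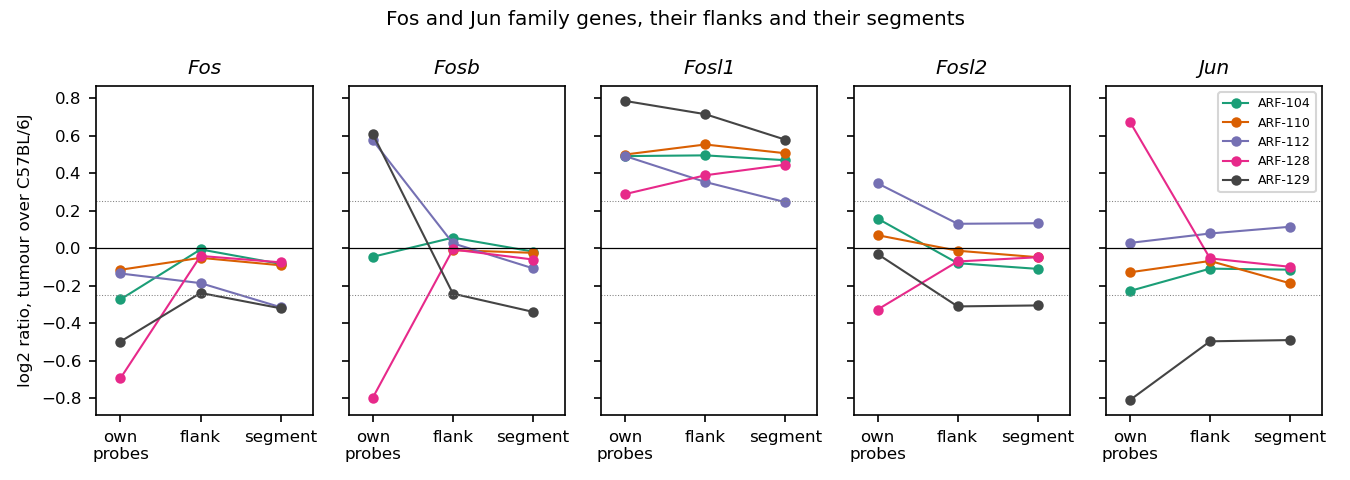
Log2 ratio of tumour over C57BL/6J (vertical axis) for each measured Fos and Jun family gene, as the mean of its own probes (left), the median of its flank within 1 Mb (middle) and the mean of its segment (right); each line is 1 tumour and dotted lines mark 0.25 in either direction. All 5 flanks of Fosl1 lie at 0.35 or above, while no flank of another gene exceeds 0.13.

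Fosl1 (Fra-1), a Fos protein without the transactivation domain of Fos itself, was the only one of the 5 measured genes whose level passed the test, and it was higher than the C57BL/6J DNA. Its log2 ratio was 0.49 for ARF-104, 0.50 for ARF-110, 0.49 for ARF-112, 0.29 for ARF-128 and 0.79 for ARF-129. All 5 tumours were above 0, with a mean of 0.51 ± 0.18 (SD, n = 5), and limma gave an adjusted p of 0.016 over all genes. In that fit 17.5% of genes were called, 9.4% higher and 8.14% lower. These shares rested on few tumours, since of all 24691 genes 231 were called higher and 180 lower with a random block for scan day, and 0 in either direction without ARF-129 (limma, with 3282 higher and 3127 lower at an unadjusted p under 0.05). Higher genes made up 53.6% of the genes called in the main setting, and 76.3% of those called after normexp background correction.

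The whole surroundings of Fosl1 on chromosome 19 were higher to the same degree. Its flank had a log2 ratio of 0.50, 0.55, 0.35, 0.39 and 0.72 in the same order of tumours. Gene minus flank was near 0 in every tumour, at -0.0040, -0.053, 0.14, -0.10 and 0.071, with a mean of 0.010 ± 0.095 (SD, n = 5; limma adjusted p = 0.90). The segment over Fosl1 started with the first probes of the chromosome in each tumour, 2.19 to 2.30 Mb below the gene. It reached the last probe of the chromosome in ARF-110, ARF-128 and ARF-129, with means of 0.51, 0.45 and 0.58. In ARF-104 it ended 4.86 Mb above the gene, with a mean of 0.47 and 0.38 in the segment that followed, and in ARF-112 it ended 31.6 Mb above, where a segment of -0.63 followed. ARF-112 had a mean of 0.246, just below the threshold, so Fosl1 was called gained in 4 tumours, as were 4.89% of all genes.

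The call on the level of Fosl1 was lost when any 1 of 3 tumours, or 1 probe, was left out. Without ARF-104 the mean was 0.52 with a limma adjusted p of 0.063, and without ARF-112 it was 0.52 with 0.062. Without ARF-129 it was 0.44 with 0.077. Calls fell among all genes as well. In level 433 genes were called higher without ARF-104, 427 without ARF-112 and 0 without ARF-129, against 2321 in the main setting. A random block for scan day gave a mean of 0.48 (limma adjusted p = 0.077), and over the 3 tumours scanned on 1 day (ARF-104, ARF-112 and ARF-129) it was 0.59, all 3 above 0. With the probes that both designs share, which leaves Fosl1 with its second probe alone, the mean was -0.10 (limma adjusted p = 0.68), and gene minus flank was -0.61 (limma adjusted p = 0.033, with 13.9% of all genes called lower in that setting).

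The 2 probes of Fosl1 read very different ratios on the denser design. The first, printed above, had a log2 ratio of 0.98 for ARF-112, 1.098 for ARF-104, 1.42 for ARF-128 and 1.63 for ARF-129. The second, at chr19:5350308-5350365, had 0.00079, -0.12, -0.84 and -0.057 in the same order of arrays. Each array put the first above the flank and the second below it, so that their mean came close to the flank. The second probe is also on the sparser design, where it had 0.50 for ARF-110 and 0.46 for ARF-128, close to the flanks of 0.55 and 0.50 there. In ARF-128 the same probe thus read -0.84 on the denser array and 0.46 on the sparser one, and the 2 designs were scanned on different days. Among 3274 genes with 2 probes on the denser design, the 2 probes were as far apart as those of Fosl1 (1.53 between their means over 4 tumours) in 2.63%, and the median gap was 0.46.

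Probes that stood apart from their flanks were common. A fit of each probe minus its flank over the 4 tumours on the denser design called 38.3% of 219833 probes at a limma adjusted p under 0.05, 17.9% higher and 20.4% lower. It had no block for scan day, although 3 of the 4 tumours were scanned on 1 day. In the fit of genes minus flank such a block left 0 genes called. Of the 11 probes of the family, 2 were called higher and 1 lower. The first probe of Fosl1 was 0.79 above its flank (SE 0.11, limma adjusted p = 0.0068) and the second 0.74 below (estimate -0.74, SE 0.15, limma adjusted p = 0.016). The Fosl2 probe printed above was 0.50 above its flank (SE 0.11, limma adjusted p = 0.018). A share of 3 in 11 is not above that of all probes.

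**Figure D2:**
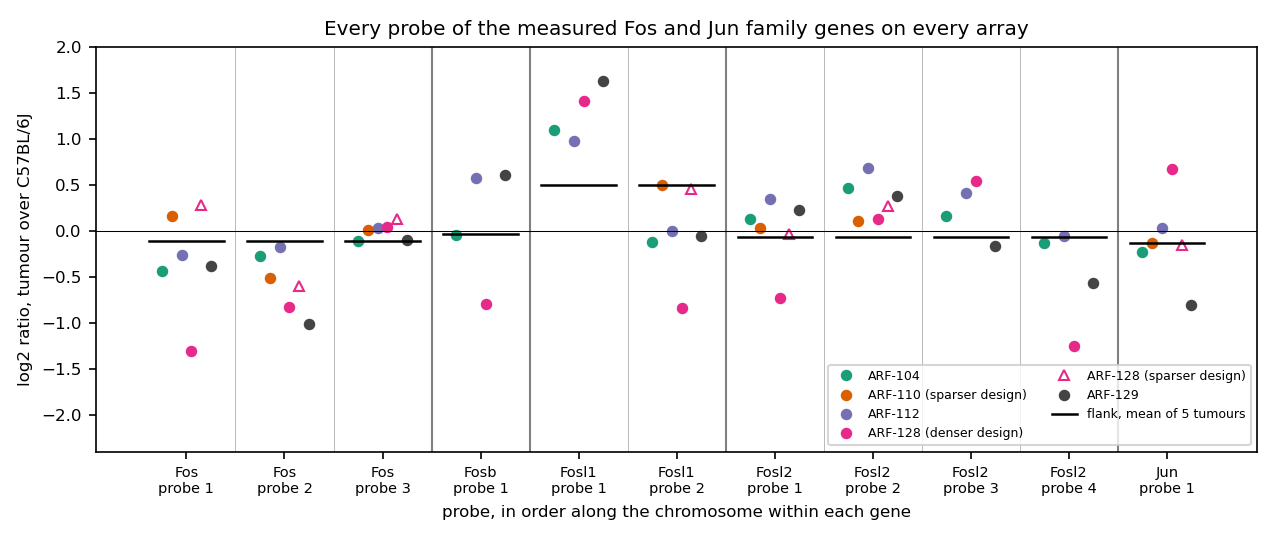
Log2 ratio of tumour over C57BL/6J (vertical axis) for each of the 11 probes, ordered along the chromosome within each gene; circles are the arrays used in the main setting, open triangles the sparser array of ARF-128, and black lines the mean flank of 5 tumours. The first and second probes of Fosl1 lie on opposite sides of the flank on the denser design, and the arrays of ARF-128 read the first Fos probe at -1.30 (denser) and 0.28 (sparser).

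Fos, the founding member and partner of the Jun proteins, read below 0 in every tumour without passing the test. Its log2 ratio was -0.27 for ARF-104, -0.11 for ARF-110, -0.13 for ARF-112, -0.69 for ARF-128 and -0.50 for ARF-129, with a mean of -0.34 ± 0.25 (SD, n = 5; limma adjusted p = 0.065). Its flank was -0.0060, -0.051, -0.19, -0.041 and -0.24 in the same order. Gene minus flank was -0.27, -0.064, 0.051, -0.65 and -0.26, so that 4 of 5 tumours were below the flank, with a mean of -0.24 ± 0.27 (SD, n = 5; limma adjusted p = 0.13). Of all genes with a value in every tumour, 42.3% lay below the flank in 4 or more. Gene minus flank had p = 0.13 by an exact sign-flip permutation test (two-sided), where the smallest p that 5 tumours allow is 0.063.

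The low values of Fos came from 2 of its 3 probes. The probe over the zipper had -0.43 for ARF-104, 0.16 for ARF-110, -0.26 for ARF-112, -1.30 for ARF-128 and -0.38 for ARF-129. The second had -0.28, -0.51, -0.18, -0.83 and -1.01 in the same tumours. The third, which holds AATAAA, had -0.11, 0.0069, 0.029, 0.048 and -0.10, close to 0 throughout. On the sparser array of ARF-128 the 3 probes had 0.28, -0.60 and 0.13, so the low value of the zipper probe in that tumour was not seen there.

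The first 2 Fos probes are unusual in length and base composition. They have 48 and 47 bases and a GC content of 43.8% and 46.8%, against 60 bases and 35% for the third. Only 0.861% of all probes are shorter than 50 bases and 1.48% have a GC content of 43% or more, with a median of 36.7% over all probes. The 1797 probes with both features had a median ratio minus flank of -0.050 for ARF-128, against 0.33 for ARF-112, 0.27 for ARF-129 and 0.25 for ARF-104, and the part of these features in the values of Fos was not tested. After correction of the ratios for GC content, Fos passed the test as lower, at -0.33 minus flank (limma adjusted p = 0.040, where 11.3% of all genes were called lower) and at -0.46 in level (limma adjusted p = 0.025, 7.76% lower). With array weights, which were 5.70 for ARF-104 and 0.34 to 0.93 for the other 4 tumours, the level passed at -0.28 (limma adjusted p = 0.011, 21.6% lower). Over the 3 tumours of 1 scan day Fos was -0.16 minus flank. Array weights gave -0.13 minus flank (limma adjusted p = 0.14). After normexp background correction Fos was -0.056 minus flank (limma adjusted p = 0.35) and -0.085 in level (limma adjusted p = 0.19). That correction added an offset of 50 to both channels, which draws ratios towards 0. The level of Fosl1 was 0.18 with it, against 0.51 in the main setting. A random block for scan day gave -0.29 minus flank (limma adjusted p = 0.43) and -0.36 in level (limma adjusted p = 0.17).

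By segment Fos was lost in ARF-112 (mean -0.31) and ARF-129 (-0.32), and was -0.083 for ARF-104, -0.091 for ARF-110 and -0.075 for ARF-128. Segments were lost in 2 or more tumours over 5.6% of all genes. No boundary lay within 10 Mb of Fos in any tumour, the nearest being 10.6 Mb above it in ARF-104. The nearest measured gene below Fos was Tmed10, a receptor of vesicle transport, with a mean level of 0.015 ± 0.21 (SD, n = 5). The nearest above it was Jundm2, now named Jdp2, itself a partner of the Jun proteins, which lay 127333 bases away at -0.0083 ± 0.12 (SD, n = 5). Batf, a further dimer partner 216343 bases above Fos, was at -0.17 ± 0.15 (SD, n = 5; limma adjusted p = 0.21). Neither Tmed10 nor Jundm2 had a mean as low as that of Fos. Both were below 0 in ARF-110, ARF-112 and ARF-129 and above 0 in ARF-104 and ARF-128. In ARF-112 Tmed10, at -0.20, was lower than Fos, at -0.13.

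Fosl2 (Fra-2), which like Fosl1 lacks the transactivation domain of Fos, was above its flank in 4 tumours and below it in ARF-128. Gene minus flank was 0.24 for ARF-104, 0.083 for ARF-110, 0.22 for ARF-112, -0.26 for ARF-128 and 0.28 for ARF-129, with a mean of 0.11 ± 0.22 (SD, n = 5; limma adjusted p = 0.37). Of all genes with a value in every tumour, 35.6% lay above the flank in 4 or more. The level was 0.16, 0.070, 0.35, -0.33 and -0.031, with a mean of 0.044 ± 0.25 (SD, n = 5; limma adjusted p = 0.81).

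The call on Fosl2 depended on the setting, the use of the denser array of ARF-128 included. Without ARF-128 the mean minus flank was 0.20 (limma adjusted p = 0.031, where 15.4% of all genes were called higher), and with its sparser array, which read 0.090 there, it was 0.18 (limma adjusted p = 0.031, 15.7% higher). Over the 3 tumours of 1 scan day the mean was 0.24, all 3 above the flank. With array weights, which were 3.88 for ARF-112, 3.30 for ARF-104 and 0.15 for ARF-128, it was 0.22 (limma adjusted p = 0.0024, 29% higher). A random block for scan day gave 0.031 (limma adjusted p = 0.90), and GC-corrected ratios gave 0.067 (limma adjusted p = 0.57). The mean of both ARF-128 arrays gave 0.14 (limma adjusted p = 0.18), so Fosl2 was not called in these settings. Of the 4 probes, which span chr5:31172087-31189039, the second had 0.47 for ARF-104, 0.10 for ARF-110, 0.69 for ARF-112, 0.13 for ARF-128 and 0.38 for ARF-129, all above the flank. The fourth had -0.053 for ARF-112, -0.13 for ARF-104, -1.25 for ARF-128 and -0.57 for ARF-129, all below the flank. The segment over Fosl2 was lost in ARF-129 (-0.30) and not called in the other 4, where it ran between -0.11 and 0.13. The genes beside Fosl2 were Bre, a component of DNA damage response complexes (-0.21 ± 0.17, SD, n = 5; limma adjusted p = 0.16), and AK030142 (-0.40 ± 0.25, SD, n = 5; limma adjusted p = 0.044).

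Jun, a partner of the Fos proteins, was measured by 1 probe at chr4:94441717-94441776. Its log2 ratio was -0.23 for ARF-104, -0.13 for ARF-110, 0.029 for ARF-112, 0.67 for ARF-128 and -0.81 for ARF-129, with a mean of -0.092 ± 0.53 (SD, n = 5; limma adjusted p = 0.75). Its flank was -0.11, -0.068, 0.079, -0.054 and -0.50. Gene minus flank was -0.12, -0.060, -0.050, 0.73 and -0.31, with a mean of 0.037 ± 0.40 (SD, n = 5; limma adjusted p = 0.86). ARF-128 alone was above the flank, and its sparser array read -0.16, or -0.096 minus flank. With that array the mean was -0.13 (limma adjusted p = 0.10), and without ARF-128 it was -0.14 (limma adjusted p = 0.11). Over the 3 tumours of 1 scan day it was -0.16.

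Jun lies 5.75 Mb above Cdkn2a, the locus that encodes Arf, and chromosome 4 was broken up around it. In ARF-104 the segment below Jun had a mean of -3.30, a deep loss, and ended 2.58 Mb before the gene, whose own segment was at -0.11. In ARF-112 and ARF-129 a boundary lay 0.843 Mb below Jun, with means of -0.19 below and 0.11 over Jun in ARF-112, and of -0.62 below and -0.49 over Jun in ARF-129. In ARF-128 the segment below had -0.66 and ended 4.28 Mb before Jun, whose segment was at -0.099, and in ARF-110 Jun lay in a segment of -0.19. Above Jun, the next segment was at -5.30 in ARF-128, 17.0 Mb away, and at -2.47 in ARF-129, also 17.0 Mb away. Jun lay outside these 3 deep losses, and was called lost in ARF-129 alone, where 28.2% of all genes were called lost. Of the genes beside it, AK086407 was at -0.54 ± 0.45 (SD, n = 5; limma adjusted p = 0.0499) and BC042782 at 0.011 ± 0.27 (SD, n = 5).

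Fosb, a Fos protein with a strong transactivation domain, was measured by 1 probe at chr7:16985946-16986005 and in 4 tumours. Its log2 ratio was -0.80 for ARF-128, -0.045 for ARF-104, 0.58 for ARF-112 and 0.61 for ARF-129, with a mean of 0.086 ± 0.66 (SD, n = 4; limma adjusted p = 0.82). Its flank was between -0.24 and 0.057. Gene minus flank was -0.79, -0.10, 0.55 and 0.85 in that order, with a mean of 0.13 ± 0.73 (SD, n = 4; limma adjusted p = 0.75). Over the 3 tumours of 1 scan day the mean was 0.43. The tumours disagreed in direction, and 4 tumours cannot give a sign-flip p below 0.13. The segment over Fosb was lost in ARF-129 (-0.34) and lay between -0.11 and -0.018 in the other 4. AK132834 below it was at 0.080 ± 0.19 (SD, n = 4) and AK171181 above it at -0.17 ± 0.73 (SD, n = 4).

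**Figure D3:**
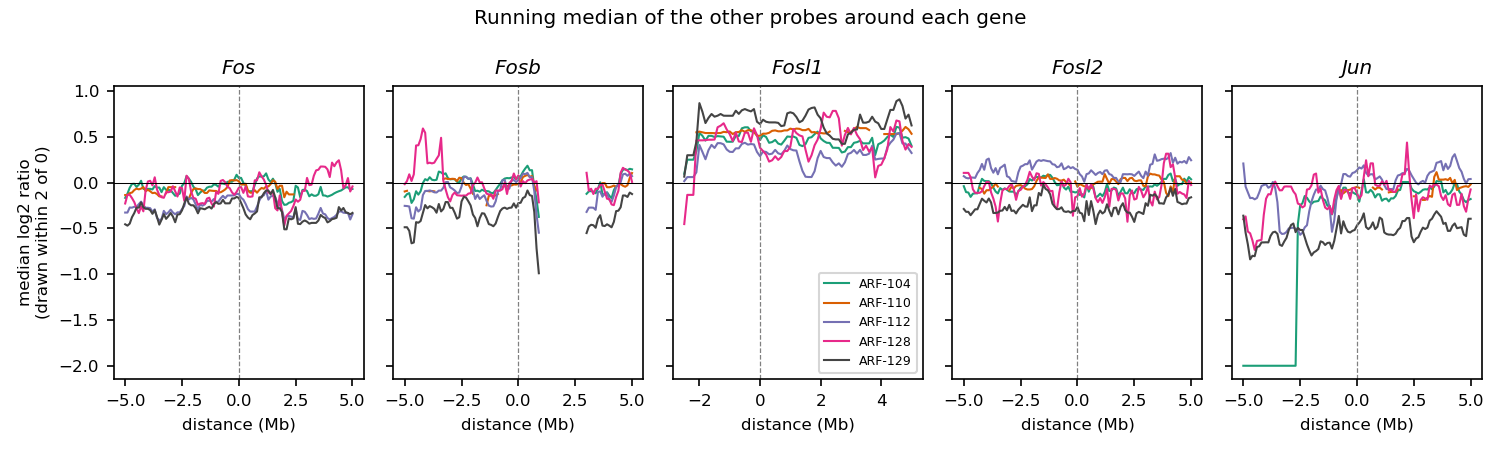
Running median of log2 ratios of tumour over C57BL/6J (vertical axis, drawn within 2 of 0) of the other probes, in windows of 0.5 Mb, against distance from the gene in Mb, with 1 line per tumour; lines break where fewer than 5 probes lie in a window. Fosl1 lies in a stretch above 0 in all 5 tumours, and the line of ARF-104 drops to the lower limit 2.58 Mb below Jun.

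Set in order of mean level, the genes ran from Fosl1 (0.51) through Fosb (0.086), Fosl2 (0.044) and Jun (-0.092) to Fos (-0.34). Neighbours in this order overlapped in their values over tumours, Fosl1 and Fosb included, since Fosb reached 0.61 in ARF-129 and Fosl1 was as low as 0.29 in ARF-128. The flanks, which rest on 32 to 398 probes each, separated Fosl1 from the rest. The lowest flank of Fosl1 was 0.35 and the highest of any other measured gene was 0.13. By segment, 4 of the 25 pairs of a gene and a tumour were gained, all of them Fosl1, and 5 were lost, of which 4 were in ARF-129. Over all genes, the share in gained segments ran from 8.72% (ARF-128) to 22.1% (ARF-129) of genes per tumour. The share in lost segments ran from 0.502% (ARF-104) to 28.2% (ARF-129).

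ARF-128 was read on both designs. Fos, with the same 3 probes on each, had a log2 ratio of -0.69 on the denser array and -0.062 on the sparser, and Jun, with the same 1 probe, had 0.67 and -0.16. Single probes lay further apart, such as the zipper probe of Fos at -1.30 and 0.28. Fosl2 had -0.33 from 4 probes on the denser array and 0.12 from 2 on the sparser, and Fosl1 had 0.29 from 2 probes and 0.46 from 1, so these values do not compare the same probes. The flanks, which are medians of many probes, differed by at most 0.11.

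The genes on other autosomes with the most similar levels over the tumours were found by root mean square difference among 9086 to 9457 genes, and similar levels say nothing of a shared role. For Fosl1 they were Cdh6, Osmr and Sema5a (0.053, 0.064 and 0.068), all on chromosome 15. For Fos they were 1500004A08Rik, Mras and Hsp110 (0.044, 0.052 and 0.055). Those for Fosl2 included Gpd1l and 1700036D21Rik (0.057 and 0.062). For Jun they were Dnajc2, Gpr26 and Rab6 (0.14, 0.17 and 0.18), and for Fosb, over 4 tumours, Gpr20, Cyhr1 and 2410104I19Rik (0.13 each), again on chromosome 15. Jun and Fosb had the least close matches. The next gene below Fosl1, AI837181, was at 0.59 ± 0.18 (SD, n = 5; limma adjusted p = 0.012). Fibp, which encodes a protein that binds a fibroblast growth factor, lay 6573 bases above Fosl1 at 1.08 ± 0.53 (SD, n = 5; limma adjusted p = 0.012), each by 1 probe. Of the 10 genes next to the 5 measured members, 2 were called higher and 2 lower in level, in a fit that called 17.5% of all genes.

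Junb and Jund, known to restrain growth in settings where Jun promotes it, lie on chromosome 8 and could only be placed through their neighbours. In the order of genes of GRCm38.p6, the nearest measured genes are Prdx2 and Hook2 beside Junb, and Lsm4 and Pde4c beside Jund. All 4 lay in 1 segment per tumour, with a mean of 0.45 for ARF-104, -0.011 for ARF-110, -0.16 for ARF-112, 0.44 for ARF-128 and 0.58 for ARF-129. That segment was gained in 3 tumours, as were segments over 13.4% of all genes in 3 or more. Of the 4 genes, Pde4c, which breaks down cAMP, was called higher at 0.68 ± 0.50 (SD, n = 5; limma adjusted p = 0.033). Hook2 was at 0.31 ± 0.32 (SD, n = 5), Lsm4 at 0.038 ± 0.40 (SD, n = 5) and Prdx2 at 0.22 ± 0.45 (SD, n = 4). The copies of Junb and Jund themselves were not measured.

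A list of 99 other genes of the AP-1 pathway, of which 90 were measured, was examined in the same fits. Of the 90, 8 were called higher and 7 lower than their flanks, or 16.7%, against 22.3% of all genes tested. The median was -0.064 for the list and -0.022 for all genes. In level, 10 were called higher and 4 lower, or 15.6% against 17.5%, with medians of -0.020 and -0.0095. Under the scan day block the level counts were 0 higher and 1 lower (18 of the 90 at an unadjusted p under 0.05 in limma), and without ARF-129 they were 0 and 0 (again 18). Segments were gained in 3 or more tumours over 16 of the 90 and lost in 3 or more over 0, against 3304 and 167 of 24691 genes. With scan day as a random block 0 of the 90 were called minus flank in either direction, as were 0 of all genes, with 8 of the 90 at an unadjusted p under 0.05. When ARF-104, ARF-112 or ARF-129 was left out the count was likewise 0, with 22, 23 and 23 at an unadjusted p under 0.05.

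Among the other dimer partners 2 of 19 were called higher and 1 lower than the flank, or 15.8% beside 22.3% of all genes, and with the scan day block none of the calls in any of the 5 groups of the list was kept. Nfe2, whose product pairs with small Maf proteins in blood cells, was 0.41 higher (limma adjusted p = 0.025, in 4 of 4 tumours), and the small Maf protein gene Mafg was 0.31 higher (limma adjusted p = 0.026, in 5 of 5). Batf2 was gained by segment in 4 tumours, with a level of 0.37 ± 0.30 (SD, n = 5; limma adjusted p = 0.068). Of the 23 kinases above AP-1, 1 was higher and 1 lower (8.7%). Mapk12, a p38 kinase on chromosome 15, was 0.61 higher (limma adjusted p = 0.031, in 5 of 5 tumours).

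Of the 11 factors that induce Fos and Jun, 0 were higher and 2 were lower than their flanks, or 18.2% beside 22.3% of all genes, which is no more than the background. Srf, which binds the serum response element of the Fos promoter, was at -0.48 (limma adjusted p = 0.027, below the flank in 5 of 5 tumours). Egr1, an early response gene like Fos, was at -0.83 (limma adjusted p = 0.032, below in 5 of 5) by 1 probe. Of the 13 genes that degrade or restrain Fos and Jun, 1 was higher and 1 lower (15.4%). Dusp1, a phosphatase of the MAP kinases, was at -0.57 (limma adjusted p = 0.025, below in 5 of 5) by 1 probe. Ddb1, a part of a ubiquitin ligase, and Men1, which encodes the Jund-binding protein menin, were each gained by segment in 4 tumours, on chromosome 19 with Fosl1. Their levels were 0.40 ± 0.15 and 1.07 ± 0.70 (SD, n = 5 each; limma adjusted p = 0.026 and 0.020). Men1 was measured by 1 probe and was not called minus flank, at 0.60 (limma adjusted p = 0.085). Its values minus flank ran from 0.031 in ARF-110 to 1.58 in ARF-129.

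Of the 24 AP-1 target genes, 4 were higher and 2 lower than their flanks, or 25% beside 22.3% of all genes, and 0 with the scan day block. Ccnd1, which encodes cyclin D1, was 0.80 higher (limma adjusted p = 0.04996, in 4 of 4 tumours) by 1 probe, and the matrix metalloproteinase gene Mmp3 was 0.46 higher (limma adjusted p = 0.023, in 5 of 5). Ptgs2, which encodes cyclooxygenase 2, was at -0.69 (limma adjusted p = 0.029, below in 5 of 5) and Plau, which encodes urokinase, at -0.38 (limma adjusted p = 0.037, below in 5 of 5), by 1 probe each. None of Ccnd1, Ptgs2 and Plau was gained or lost by segment in more than 1 tumour.

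**Figure D4:**
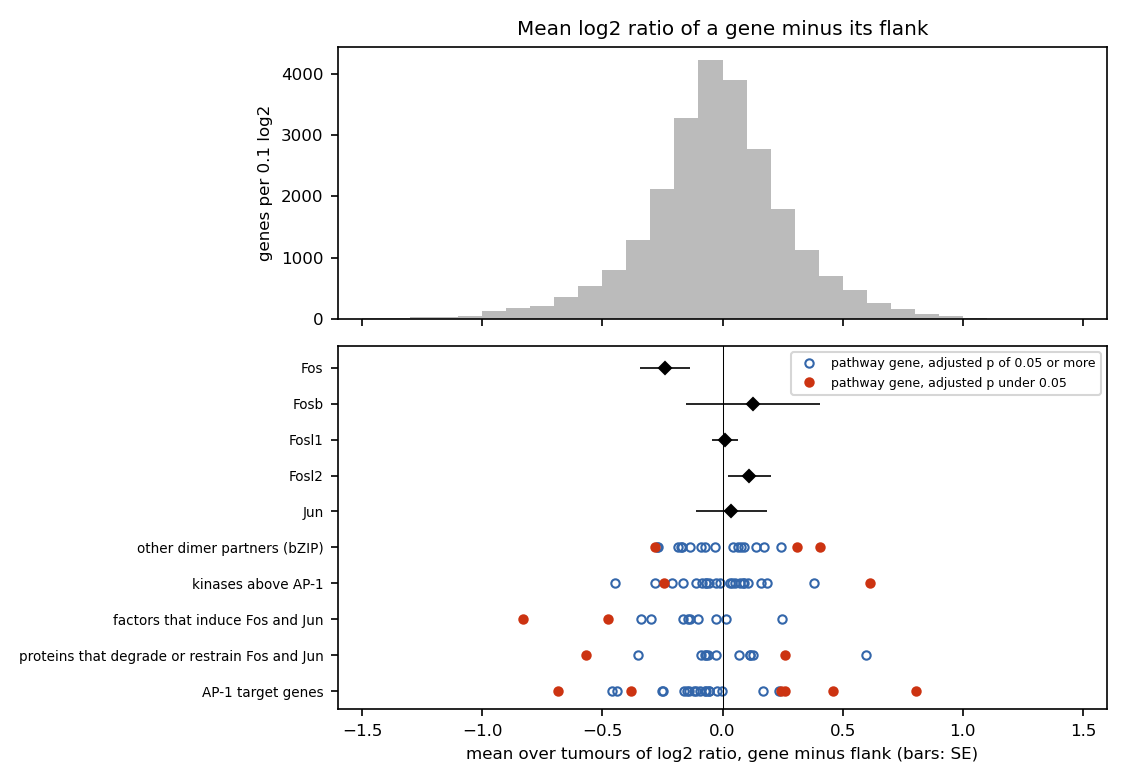
Upper panel: number of genes (vertical axis) by mean over tumours of log2 ratio of gene minus flank (horizontal axis, bins of 0.1) among all genes tested. Lower panel: the same quantity for the 5 measured family genes (diamonds, bars are the SE of limma) and the 90 pathway genes (circles, filled where the limma adjusted p was under 0.05). The 5 family genes lie between -0.24 (Fos) and 0.13 (Fosb), within the body of the distribution.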

How the data were processed

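Genomic DNA of 5 tumours was read on 6 two-colour Agilent arrays, 2 of 44050 spots (ARF-110 and ARF-128) and 4 of 243301 spots. The authors derived a processed intensity per spot and channel, per the file headers, using Agilent Feature Extraction in version 8.5.1.1 or, on the denser design, 9.1.3.1 and 9.5.3.1 (ARF-128). The deposited log10 ratio per spot and the deposited value table (log10 for the sparser design, log2 for the denser) served as alternatives. Labelling followed digestion with AluI and RsaI, per the labels' protocols, and none of the 11 probes holds either site (0.035% of all probes do).

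Processed red intensity was divided by green and put on the log2 scale, without control or outlier spots, and each probe's repeats were averaged before the array was centred. Segments came from penalised least squares (penalty 5 log n, at least 5 probes). Gene minus flank (at least 10 flank probes) and gene level were tested against 0 with limma 3.58.1 (R 4.3.3; intercept, eBayes, Benjamini-Hochberg over all genes with 3 or more tumours), two-sided. The fits and the segmentation were tested on simulated data with independent noise. The simulation held no effects of single probes or scan days, so it cannot show how the fits behave under such effects. Python 3.11.15 was used. Scan days were 3 (sparser arrays; ARF-104, ARF-112 and ARF-129; ARF-128 denser). The tumour numbers were taken as separate animals, which the labels do not state, so p-values measure the spread between these samples. The members, the pathway list and the tests were chosen with earlier results of these data known. Genes named are all measured members and their nearest genes, the 3 nearest in level, and up to 5 pathway genes in each direction or gained or lost in 4 or more tumours; Batf was added after its values were seen. The fit of single probes and the means over 1 scan day were added after seeing the data. One gene among those with levels most like Fosl2 is not reported here.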

Additional observations from a re-analysis of the deposited data

Results flagged for a closer look

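In 20 sets of 4 or 5 tumour values (level, flank, gene minus flank and segment of each measured gene), 3 had a tumour far from the others, where chance gives about 1 in 20. The sets are not independent, since gene minus flank and the segment rest on the same probes as the level and the flank. The 3 are thus not all separate events, and an excess over chance was not tested. Jun minus flank was 0.73 in ARF-128, against -0.31 to -0.050 in the other 4 tumours. It rests on 1 probe of the array with the highest probe noise, and the sparser array of ARF-128 read -0.096. The flank of Fosb was -0.24 in ARF-129, against -0.010 to 0.057 in the others, and its segment mean was -0.34, against -0.11 to -0.018. ARF-129 had 28.2% of all genes in lost segments, the highest share of the 5 tumours.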

How the results depend on the processing

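No paired analysis was possible because all tumours form 1 group. Values are limma counts or log2 means in the order alternative, then main setting. Minus flank, 1 member was higher with the sparser array of ARF-128 and 1 with array weights (Fosl2 both times), against 0, and 0 to 1 when each tumour was left out. Members lower were 1 with probes of both designs (Fosl1) and 1 with GC-corrected ratios (Fos), against 0. In level, members higher were 0 with probes of both designs and 0 with a random block for scan day, and 0 to 1 with each tumour left out, against 1 (Fosl1). Members lower were 1 with GC-corrected ratios and 1 with array weights (Fos), against 0. Of all genes minus flank, 3880 were higher with the sparser array of ARF-128, 3691 with the mean of both arrays, 7165 with array weights, 0 with the scan day block (consensus correlation 0.86) and 0 to 3792 with each tumour left out, against 2398. Lower were 1429 with normexp, 8295 with array weights, 0 with the block and 0 to 4552 with each tumour left out, against 3096. At an unadjusted p under 0.05 the block had 1898 higher and 2480 lower. In level, 3799 were higher with the sparser array, 5903 with array weights, 231 with the block, 819 with segment means and 0 to 3119 with each tumour left out, against 2321. Lower were 698 with normexp, 5329 with array weights, 180 with the block, 0 with segment means (1836 unadjusted) and 0 to 2641 with each tumour left out, against 2010. Without ARF-129, 3282 were higher and 3127 lower unadjusted. Pathway genes called minus flank were 0 higher and 0 lower with the block, and 0 to 15 in each direction with each tumour left out, against 8 and 7. In level 0 were higher and 1 lower with the block, and 0 to 13 and 0 to 6 with each tumour left out, against 10 and 4. Segments of members lost were 1 at a threshold of 0.35 and 0 with normexp, against 5. The threshold with normexp was still 0.25, although its offset of 50 draws ratios towards 0. Segments of members gained stayed at 4 or 5 in all settings.

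Means that changed sign were all small or rested on 1 probe, and the cause was not tested. Minus flank, Fosb was -0.15 with the block and -0.11 to 0.43 with each tumour left out. Fosl1 was -0.11 with normexp, -0.61 with probes of both designs, -0.0010 with GC correction, -0.025 with the block, -0.00022 with a flank of 2 Mb and -0.022 to 0.038 with each tumour left out. Jun was -0.038 with normexp, -0.13 with the sparser array, -0.046 with the mean of both, -0.11 with array weights and -0.14 to 0.12 with each tumour left out. In level, Fosb was -0.069 with the block, -0.11 with segment means and -0.089 to 0.38 with each tumour left out. Fosl1 was -0.10 with probes of both designs. Fosl2 was -0.0085 with GC correction, -0.075 with segment means and -0.032 to 0.14 with each tumour left out. Jun was 0.00017 with the block and -0.28 to 0.087 with each tumour left out. Fos kept its negative sign in all alternatives of both fits, with adjusted p between 0.040 and 0.43 minus flank and between 0.011 and 0.21 in level. The level of Fosl1 was called in 14 of 19 alternatives. The red median was 4.14 times background on the denser array of ARF-128 and 5.80 to 11.1 times on the other 5, and spots not well above background numbered 103 to 2187 an array.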
